A study of Mus musculus with 14 samples.

Results

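Thymocytes labelled as Ezh2-deleted were compared with wild-type (WT) thymocytes of the same developmental stage, on 6 of the 14 single-colour Agilent arrays of the study, 3 for each genotype. The arrays were chosen by their genotype and stage labels. Lethally irradiated CD45.1+ wild-type mice had received total bone marrow from donors with Cre-ERT2 alone (WT here) or with Cre-ERT2 and floxed alleles of Ezh2, so every group carried the tamoxifen-activated recombinase, on a C57BL/6 background. Deletion took place 4 weeks after transplantation and CD4-CD8- thymic cells were sorted 3 months after transplantation by CD44 and CD25 into DN1 (CD44 alone), DN2 (both) and DN3 (CD25 alone), the successive early stages of T cell development. Values of p53-deleted cells (floxed p53, the gene Trp53) and double-deleted cells (both floxed genes), made and sorted in the same way, are set beside the comparison where named. The sources used here do not give the promoter of Cre-ERT2, the sex and age of the mice, or whether separate mice supplied each stage. The cell types in which recombination could occur are therefore not known here. Cells of the recipient that survived irradiation could be present in the thymus, since no gate on donor cells is stated.

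Each genotype and stage had 1 array, so the 3 stages served as the matched observations and a p compares how alike the 3 stages were with how far the genotypes lay apart, and holds nothing on the spread between mice. The arrays of the 2 genotypes lay on different slides, each with its own scan, so the genotype and the slide cannot be told apart in the direct comparison. Slide 1 held the WT arrays and the double-deleted DN2 and DN3 arrays, slide 2 held all Ezh2-deleted and p53-deleted arrays, and slide 3 held the double-deleted DN1 array. Before scaling, the 75th percentile of the processed signal was 270.9 to 276.8 on the WT arrays and 61.3 to 102.2 on the Ezh2-deleted arrays, and 40.3% to 50.2% of probes were well above background on these 6. Pearson correlations across all features tested, which share the normalization and the probes, were 0.902, 0.914 and 0.925 between WT and Ezh2-deleted cells at DN1, DN2 and DN3, and 0.952, 0.948 and 0.955 between Ezh2-deleted and p53-deleted cells on slide 2. The Ezh2-deleted arrays also stood apart by sex-linked genes: Xist, the RNA of the inactive X chromosome, was well above background on them and on none of the other 9 non-leukemic arrays, while Uty, Ddx3y and Eif2s3y, genes of the Y chromosome, were above background on those 9 and on none of the Ezh2-deleted arrays. Genes known to lie on chromosomes X and Y were therefore left out of all that follows, though features of unknown chromosome stayed in, and sex and genotype cannot be told apart for autosomal genes.

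Ezh2 is the catalytic subunit of Polycomb repressive complex 2 (PRC2), which methylates a lysine of histone H3 and keeps genes of other lineages and developmental stages silent. PRC2 is recruited largely to CpG-rich gene starts, and the Cdkn2a locus, which encodes the cell cycle inhibitor p16Ink4a and the p53 activator p19Arf, is among its best known targets in blood cells. In the thymus, loss of PRC2 subunits is known for impaired T cell development and for T cell leukemia.

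Levels are given as log2 of the processed signal relative to the 75th percentile of the array, in the order DN1, DN2 and DN3, and differences are Ezh2-deleted minus WT on that scale with the standard error (SE) of the limma fit and n = 3 arrays for each genotype. The probe for Ezh2 itself read 2.36, 4.16 and 4.43 in WT cells and 2.78, 3.89 and 3.72 in Ezh2-deleted cells. Its groups overlapped, with a difference of -0.18 ± 0.40 (adjusted p = 0.745). It was also well above background on all 3 double-deleted arrays, and the sources used here do not place it relative to the deleted exons. It therefore checks no label, and Ezh2-deleted below means deleted by label. Trp53 read 0.11, 1.03 and 1.28 in WT and 0.68, 1.68 and 1.24 in Ezh2-deleted cells, against -3.50, -5.36 and -4.88 in p53-deleted cells, where no array was above background. The sort gates were visible in the arrays: Il2ra, which encodes CD25, read 0.52, 7.04 and 6.53 in WT and 2.35, 7.74 and 7.41 in Ezh2-deleted cells, lowest at DN1 in both, and Cd44 read 2.93, 1.25 and -0.41 and 3.79, 2.08 and -2.01, lowest at DN3 in both. Bcl11b, a factor of T cell commitment, was well above background on all 6 arrays.

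The 3 genes that mark the Ezh2-deleted cells were all far higher in them than in WT cells, but they differed in where else they were high. Yap1, the transcriptional coactivator of the Hippo pathway, read -5.72, -3.65 and -1.74 in WT cells and 1.08, 2.67 and 3.15 in Ezh2-deleted cells. Every Ezh2-deleted array lay above every WT array, and the level was lowest at DN1 and highest at DN3 in both genotypes. The difference was 6.01 ± 0.53 (adjusted p = 6.41e-05), and the mean rank of Yap1 within the array went from the 17.9 to the 74.2 percentile. On slide 2, p53-deleted cells read -3.30, -3.56 and -1.84, which put the Ezh2-deleted cells 5.20 ± 0.53 above them (adjusted p = 0.00236). Double-deleted cells read 2.27, 2.89 and 3.40, above the Ezh2-deleted array of each stage, although the DN2 and DN3 arrays among them shared the slide of WT.

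Fbln1, which encodes the extracellular matrix protein fibulin-1, read -5.69, -4.34 and -4.99 in WT cells, not well above background on any array, and 0.64, 2.06 and 0.69 in Ezh2-deleted cells. It was at least 23.6-fold higher in Ezh2-deleted cells, a bound that takes each WT array at the dimmest signal still well above background, with a fitted difference of 6.14 ± 0.42 (adjusted p = 1.5e-05). Its mean rank went from the 6.2 to the 65.1 percentile. The p53-deleted cells read 2.08, 1.52 and 1.47, and the difference on slide 2, Ezh2-deleted minus p53-deleted, was -0.56 ± 0.42 (adjusted p = 0.512). Double-deleted cells read 1.14, 1.09 and 0.03, again above every WT array.

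Cdkn2a read -3.05, -5.28 and -3.45 in WT cells, where only 1 of 3 arrays was above background, and 1.10, 2.74 and 2.44 in Ezh2-deleted cells. The difference was 6.02 ± 0.61 (adjusted p = 0.000147), and its mean rank went from the 12.6 to the 72.7 percentile. It was higher still without p53: p53-deleted cells read 6.56, 6.40 and 6.57 and double-deleted cells 5.46, 5.43 and 4.78. On slide 2 the difference between Ezh2-deleted and p53-deleted cells was -4.42 ± 0.61 (adjusted p = 0.00734). A second probe gave differences from WT of 2.58 for Cdkn2a and 2.55 for Fbln1, and Yap1 had 1 probe.

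**Figure D1:**
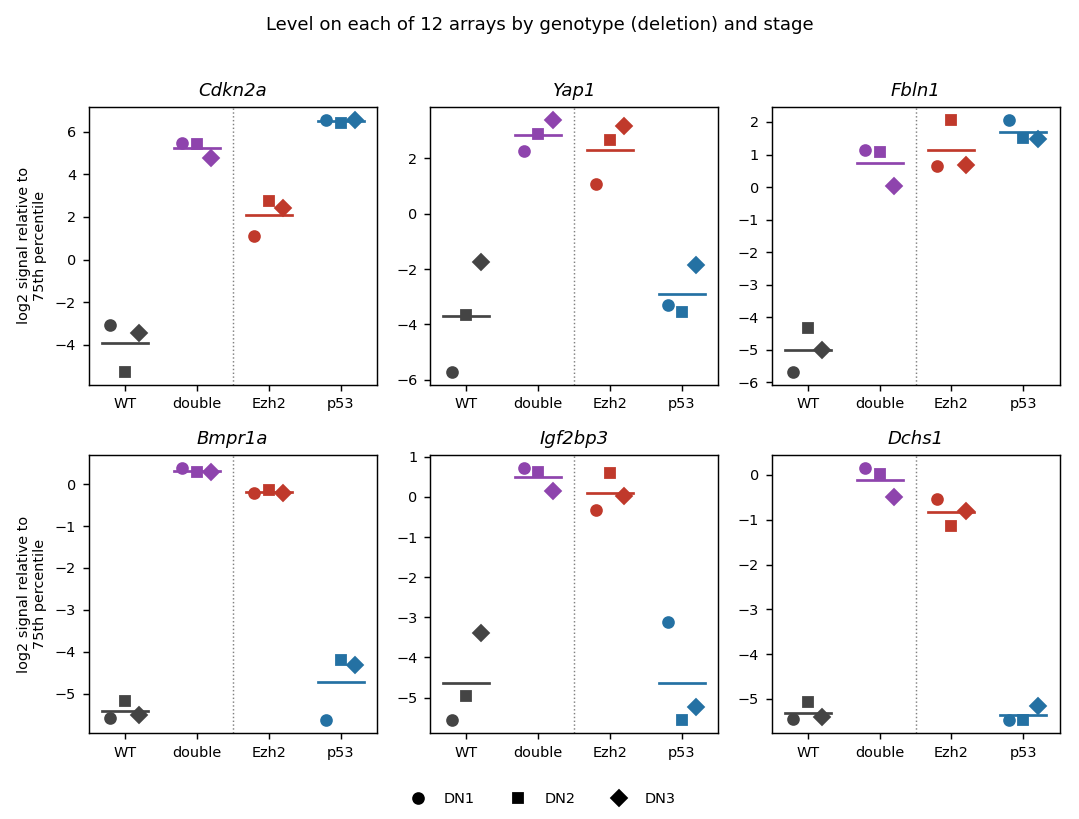
Level of 6 genes on each of 12 arrays, as log2 signal relative to the 75th percentile of the array (vertical axis), by genotype (horizontal axis: WT, double-deleted, Ezh2-deleted, p53-deleted), with circles for DN1, squares for DN2, diamonds for DN3 and a bar at the mean of 3. The dotted line separates slide 2 (right) from slides 1 and 3 (left). Yap1, Bmpr1a, Igf2bp3 and Dchs1 were high in both genotypes with Ezh2 deleted and low in both others, while Cdkn2a and Fbln1 were high also in p53-deleted cells.

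The starts of these genes are shown because the 3 marker genes and Bmpr1a were among the 15 largest rises against WT, Bmpr1a being a type I receptor for bone morphogenetic proteins, and because PRC2 is known for its affinity to CpG-rich starts. Each RefSeq window (GRCm38.p6) runs from 250 bases before to 50 bases after the annotated start, 5′ to 3′ on the strand of the gene, with every CG pair in capitals. Where the table holds 2 windows for a gene (Cdkn2a and Fbln1), the window with more CG pairs is printed. The windows are chr9:8004547-8004846, minus strand, for Yap1, chr14:34502497-34502796, minus strand, for Bmpr1a, chr4:89294570-89294869, minus strand, for Cdkn2a, and chr15:85205758-85206057, plus strand, for Fbln1.
Yap1: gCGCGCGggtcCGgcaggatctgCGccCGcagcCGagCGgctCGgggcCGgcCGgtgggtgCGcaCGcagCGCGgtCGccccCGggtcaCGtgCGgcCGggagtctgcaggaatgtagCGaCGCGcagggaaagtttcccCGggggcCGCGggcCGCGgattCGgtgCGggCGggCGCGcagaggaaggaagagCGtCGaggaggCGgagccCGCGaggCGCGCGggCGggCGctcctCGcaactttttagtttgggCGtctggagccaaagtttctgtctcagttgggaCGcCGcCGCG
Bmpr1a: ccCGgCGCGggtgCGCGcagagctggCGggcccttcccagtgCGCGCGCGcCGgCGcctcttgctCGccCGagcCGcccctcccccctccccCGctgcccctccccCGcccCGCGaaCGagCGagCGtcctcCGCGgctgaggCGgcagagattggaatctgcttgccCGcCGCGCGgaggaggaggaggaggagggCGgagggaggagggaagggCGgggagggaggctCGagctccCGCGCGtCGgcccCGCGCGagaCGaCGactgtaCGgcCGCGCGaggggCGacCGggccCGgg
Cdkn2a: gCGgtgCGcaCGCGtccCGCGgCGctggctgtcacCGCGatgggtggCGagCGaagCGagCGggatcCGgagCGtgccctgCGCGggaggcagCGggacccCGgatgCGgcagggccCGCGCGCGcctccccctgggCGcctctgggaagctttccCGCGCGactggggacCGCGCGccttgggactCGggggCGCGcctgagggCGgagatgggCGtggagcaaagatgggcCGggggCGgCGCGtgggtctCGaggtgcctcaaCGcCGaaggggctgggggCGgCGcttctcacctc
Fbln1: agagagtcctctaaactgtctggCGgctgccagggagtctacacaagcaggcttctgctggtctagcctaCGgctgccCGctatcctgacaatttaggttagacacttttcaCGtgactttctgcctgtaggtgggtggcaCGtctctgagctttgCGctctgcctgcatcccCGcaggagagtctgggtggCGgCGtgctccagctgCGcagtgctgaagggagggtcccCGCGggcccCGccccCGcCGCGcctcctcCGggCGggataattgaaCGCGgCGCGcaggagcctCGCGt

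The CG motif, which reads the same on both strands, occurred 49 times in the Yap1 window, 48 times in that of Bmpr1a, 45 times in that of Cdkn2a and 24 times in that of Fbln1. A CG was present in 94.6% of the 32851 windows of the table, with a median of 7.0 in each, and the median was 21.0 over the 10930 named genes tested that had a window, with the window of most CG pairs taken for each gene. A comparison of CG content between called genes and all genes is void, since a window was at hand for 79.6% of the 13727 named genes tested and for 79.6% and 77.2% of those that rose and fell, below the 80% it would need.

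Over all 26315 features tested, 13727 of them named genes and 6262 with no known chromosome, limma called 9324 at an adjusted p under 0.05, which is 35.4% (12187 at an unadjusted p under 0.05). Of these, 4596 (17.5%) rose and 4728 (18.0%) fell, and the named genes among them numbered 3332 and 1525. The median difference of all features was 0.16. The split depended on scaling and background correction: 3084 features rose and 5315 fell when the percentile was taken over probes detected on all arrays, which moved the median of all features to -0.07, and 9877 rose and 3471 fell with normexp background correction, which moved it to 0.36. Of the features tested, 5026 (19.1%) were higher on all 3 Ezh2-deleted arrays than on any WT array and 5412 (20.6%) were lower. The count of rises rested on single arrays: it was 2550 without the WT DN2 array, 2569 without Ezh2-deleted DN2, 2804 without Ezh2-deleted DN3 and 3037 without WT DN1.

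Values that do not rest on a difference between slides were set beside these. On slide 2, Ezh2-deleted and p53-deleted arrays differed in 1019 features (3.87%), with 582 (2.21%) higher and 437 (1.66%) lower in Ezh2-deleted cells. This comparison shares the Ezh2-deleted arrays with the one above. The total was 660, 265 and 403 when the Ezh2-deleted DN1, DN2 or DN3 array was left out. In a fit of the 12 non-leukemic arrays with slide as a block, which assumes that the Ezh2 and p53 deletions add, 560 features were called (2.13%), of which 435 (1.65%) rose and 125 (0.475%) fell with Ezh2 deletion. That total was 261 without WT DN2, 269 without Ezh2-deleted DN2 and 294 without Ezh2-deleted DN3, its rises numbered 256 without WT DN3 and its falls 54 without Ezh2-deleted DN1. Of the 4596 rises, 305 kept their call with the block (6.64%), and of the 4728 falls, 54 did (1.14%). These retained calls comprised 256 named genes that rose and 13 that fell. In the block fit the double-deleted DN1 array, alone on slide 3, was fitted exactly by its own slide term. It therefore added nothing to the estimate for Ezh2 deletion. Whether the deletions add cannot be tested with these arrays, since slide 1 held the genotypes with neither or both deletions and slide 2 those with either alone.

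The 15 named genes with the largest rises included receptors, adhesion and matrix proteins and neural genes. They were Fbln1, Cdkn2a, Yap1, Shtn1, Cnnm1, Ncam1, Lbhd2, Nectin1, Tenm4, Rab15, Fndc4, Bmpr1a, Scara3, Susd4 and Amph, with differences of 5.09 to 6.14 and adjusted p of at most 0.0019. In WT cells 10 of the 15 were not well above background on any array. Signal above background in Ezh2-deleted cells was a condition for a place among the 15, so its presence there is no result. With the slide block 14 of the 15 kept their call, with differences of 2.30 to 5.72 over all 15, and Cdkn2a, at 2.30 ± 0.49, did not (adjusted p = 0.0611). On slide 2, 8 of the 15 were higher in Ezh2-deleted than in p53-deleted cells and 1, Cdkn2a, was lower. Fbln1, Cnnm1, Nectin1 and Ncam1 had block values of 2.44, 2.35, 2.64 and 3.94. On slide 2 they differed from p53-deleted cells by -0.56, -1.58, -1.05 and 0.31, with none called. Their block values thus draw on the double-deleted DN2 and DN3 arrays against WT arrays. They measure Ezh2 deletion only if the deletions add, which cannot be tested with these arrays.

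Bmpr1a read -5.57, -5.16 and -5.49 in WT cells and -0.22, -0.14 and -0.22 in Ezh2-deleted cells, with little spread over the stages. Its mean rank went from the 3.4 to the 53.8 percentile. It was at least 9.44-fold higher, with a fitted difference of 5.22 ± 0.32 (adjusted p = 8.16e-06). On slide 2 it was 4.53 ± 0.32 above p53-deleted cells (adjusted p = 0.000342), where it was not above background on any array, and double-deleted cells read 0.39, 0.28 and 0.28.

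Several of the other 14 are genes of the nervous system. Ncam1, the neural cell adhesion molecule that is also the CD56 antigen, read -5.44, -5.02 and -3.97 in WT and 0.28, 1.01 and 1.37 in Ezh2-deleted cells, at least 19.9-fold higher (5.70 ± 0.38, adjusted p = 1.25e-05). Its other probes gave differences of 2.04 and 3.59, and p53-deleted cells on the same slide read -0.15, 0.57 and 1.31, a difference of 0.31 ± 0.38 (adjusted p = 0.703). Amph, the synaptic endocytosis protein amphiphysin, read -5.67, -5.27 and -5.60 in WT, -0.40, -0.50 and -0.36 in Ezh2-deleted and -3.17, -2.03 and -5.21 in p53-deleted cells. It was at least 8.06-fold higher than in WT (5.09 ± 0.58, adjusted p = 0.000292) and 3.05 ± 0.58 above p53-deleted cells (adjusted p = 0.0252). Tenm4, a teneurin that guides neurons, read -5.72, -5.33 and -5.65 in WT and -1.52, 0.97 and -0.05 in Ezh2-deleted cells, but its 2 probes disagreed, with differences of 5.36 and -1.80. Shtn1, which encodes the axon protein shootin-1, went from -3.53, -5.18 and -5.55 to 0.47, 1.34 and 1.90 and was 2.74 ± 0.72 above p53-deleted cells, a difference that did not pass the test (adjusted p = 0.0754).

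Lbhd2 read -4.41, -5.47 and -1.44 in WT and -0.61, 1.44 and 4.56 in Ezh2-deleted cells, lowest at DN1 and highest at DN3 in the latter, with a difference of 5.57 ± 0.76 (adjusted p = 0.000795), and p53-deleted cells, at -5.79, -5.13 and -4.40, were above background on no array. Susd4, a complement regulator, read -2.80, -5.14 and -5.50 in WT and 0.45, 0.09 and 1.30 in Ezh2-deleted cells (5.10 ± 0.61, adjusted p = 0.000369), and was 4.95 ± 0.61 above p53-deleted cells (adjusted p = 0.00475). Scara3, a scavenger receptor, went from -5.64, -5.21 and -5.35 to -2.20, 0.48 and 1.01, lowest at DN1, and Fndc4, a secreted fibronectin-domain protein, from -2.96, -2.36 and -2.23 to 1.24, 3.14 and 3.73. Neither overlapped between the genotypes, and both were higher than in p53-deleted cells on slide 2 (adjusted p = 0.0145 and 0.00245). Cnnm1 and Nectin1 were instead below p53-deleted cells there, by values that did not pass the test, at -1.58 ± 0.37 and -1.05 ± 0.47 (adjusted p = 0.0535 and 0.264).

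**Figure D2:**
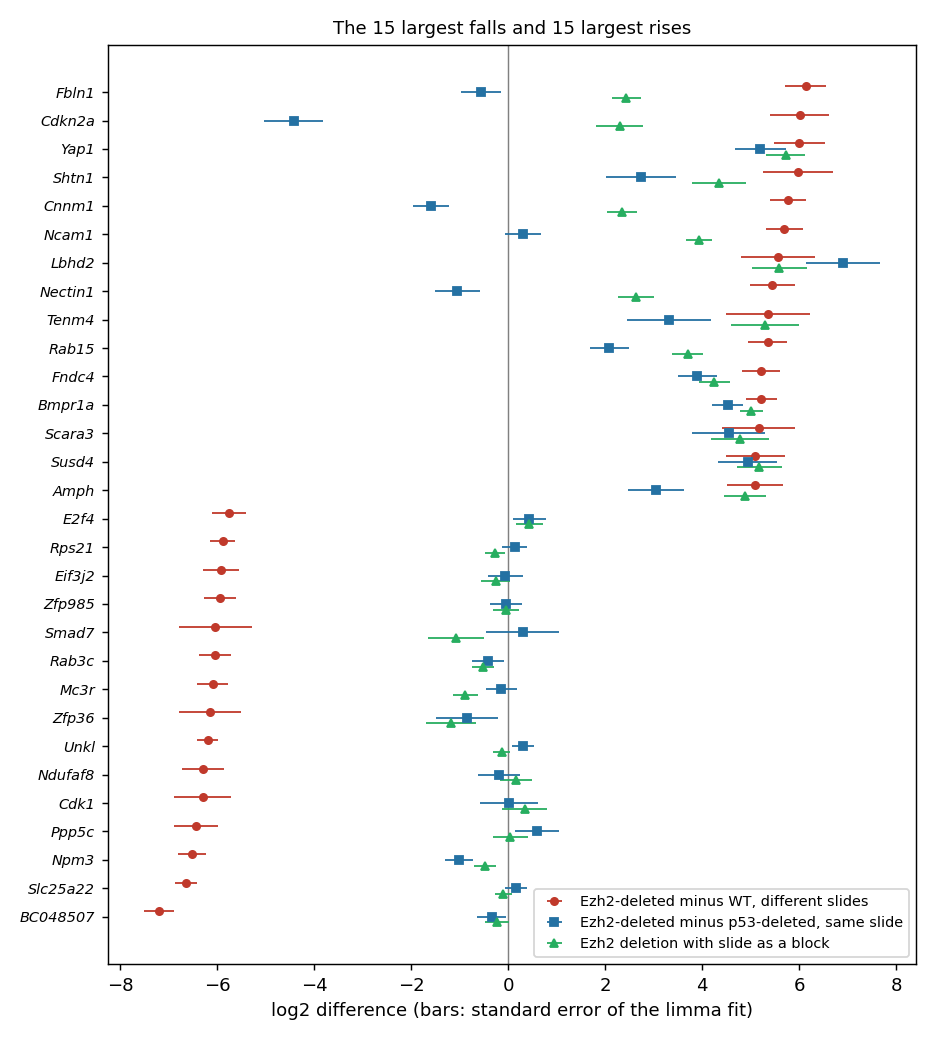
The 15 largest rises and 15 largest falls (vertical axis, by gene) with 3 log2 differences each (horizontal axis): Ezh2-deleted minus WT across slides (circles), Ezh2-deleted minus p53-deleted on slide 2 (squares) and the Ezh2 deletion with slide as a block (triangles), with bars for the standard error of the limma fit. All 15 falls lie between -7.20 and -5.76 across slides and between -1.01 and 0.59 on slide 2, while the rises spread on slide 2 from Cdkn2a, at -4.42, to Lbhd2, at 6.90.

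The 15 largest falls were BC048507, Slc25a22, Npm3, Ppp5c, Cdk1, Ndufaf8, Unkl, Zfp36, Mc3r, Rab3c, Smad7, Zfp985, Eif3j2, Rps21 and E2f4, with differences of -7.20 to -5.76 and adjusted p of at most 0.0005. With the slide block none of the 15 kept its call, at -1.19 to 0.43, and on slide 2 they differed from p53-deleted cells by -1.01 to 0.59, with none called. Cdk1, the mitotic kinase, read 0.43, 2.89 and 2.78 in WT cells, -5.61, -3.33 and -3.87 in Ezh2-deleted, -4.06, -4.98 and -3.81 in p53-deleted and 2.56, 3.48 and 2.84 in double-deleted cells. The arrays of slide 2 were low and all others were high. Slide 2 held both single deletions and no other genotype, so slide and genotype cannot be told apart here. The 3 probes of Cdk1 gave differences of -6.30, -4.01 and 0.20. Rps21, a ribosomal protein gene, read 7.92, 8.03 and 7.82 in WT cells, 1.70, 2.06 and 2.33 in Ezh2-deleted, 2.27, 1.72 and 1.68 in p53-deleted and 7.00, 7.23 and 7.26 in double-deleted cells, with the same division. Smad7, an inhibitor of TGF-beta signalling, and Zfp36, an mRNA-decay factor, read 2.48, 2.25 and 0.82 and 3.46, 2.24 and 1.08 in WT cells and -2.47, -4.85 and -5.24 and -2.29, -4.70 and -4.66 in Ezh2-deleted cells.

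Among called genes with at least 2 probes, another probe moved the opposite way by over 0.5 in 12.1% of 1029 genes that rose and in 33.3% of 303 genes that fell. The share was 5.26% of the 57 genes that rose and kept the call with the slide block, where the other probes all moved the same way by over 0.5 in 84.2%. Ranks within the array gave the same direction as the differences for all 30 genes. These were picked by large differences on the same arrays, so the shared direction is no separate check. The mean rank rose by 49.1 to 60.1 percentile points for the 15 rises and fell by 25.1 to 65.1 points for the 15 falls.

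**Figure D3:**
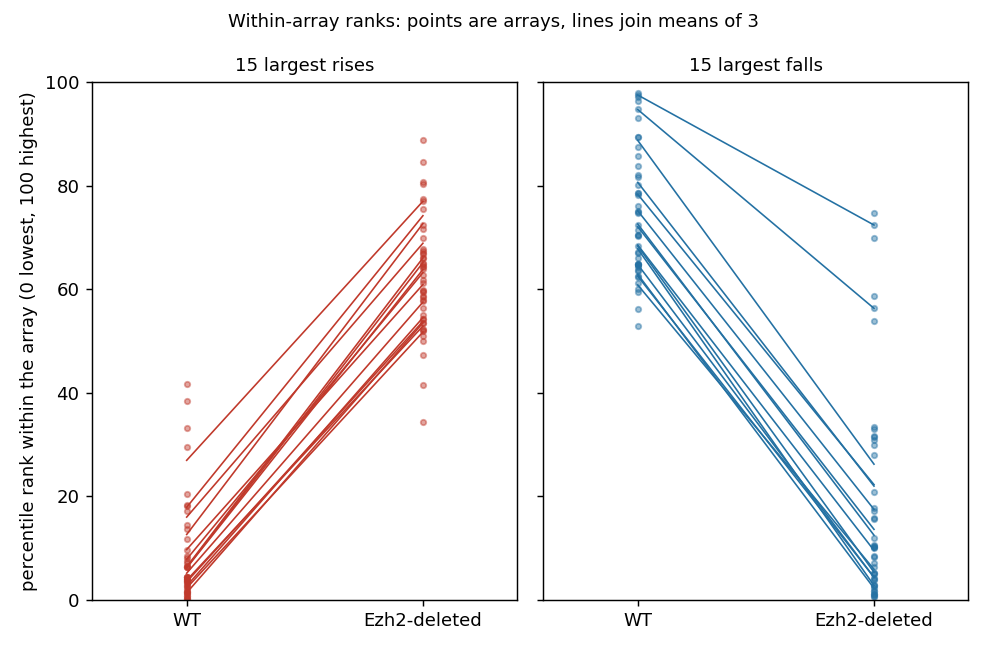
Percentile rank within the array (vertical axis, 0 lowest and 100 highest, over all features tested) of the 15 largest rises (left) and 15 largest falls (right) on WT and Ezh2-deleted arrays (horizontal axis). Points are the 3 arrays of a genotype and lines join their means, which rose by 49.1 to 60.1 points for the rises. Rps21 and Rab3c, the uppermost lines of the falls, went from 97.6 to 72.4 and from 94.7 to 56.3.

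Genes of the Hippo pathway, which holds YAP and TEAD back from growth genes, were described as a list. Of 30 members, 22 were tested, 8 rose (17.5% of all features did) and none fell, with a median difference of 0.58 beside 0.16 over all features. With the slide block 6 rose (1.65% of all features did). Dchs1, a giant protocadherin upstream of Hippo signalling, read -5.46, -5.07 and -5.40 in WT and -0.55, -1.15 and -0.80 in Ezh2-deleted cells, at least 6.06-fold higher (4.48 ± 0.27, adjusted p = 7.7e-06). In p53-deleted cells it read -5.48, -5.48 and -5.15, above background on no array, and it differed on slide 2 by 4.54 ± 0.27 (adjusted p = 0.00013). Tead1, a DNA-binding partner of YAP, went from -4.69, -3.79 and -4.78 to -2.80, -1.42 and -1.65, at least 2.77-fold higher (2.46 ± 0.44, adjusted p = 0.00332, or 0.47 with no call as the mean of its probes), while p53-deleted cells read -2.25, -2.48 and -1.20.

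Wwtr1, which encodes the YAP paralog TAZ, was called only with the slide block, at 1.57 ± 0.18 (adjusted p = 0.00577). It was above background on the 3 double-deleted arrays, at -2.99, -2.21 and -2.40, and on none of the Ezh2-deleted arrays, at -5.34, -4.80 and -5.18. Of the double-deleted arrays only DN2 and DN3 bear on the block value. The YAP target genes Ccn1 and Ccn2 did not pass the test, with differences of 0.21 ± 0.82 and 1.17 ± 1.25 (adjusted p = 0.865 and 0.493).

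Matrix and adhesion genes gave 9 rises and 2 falls among 33 tested of 52, with a median difference of 1.03, and 8 rises with the slide block, where 17.5%, 18.0% and 1.65% of all features did so. Col5a1, a fibrillar collagen chain, read -5.62, -5.22 and -5.54 in WT and -0.65, -1.81 and -2.76 in Ezh2-deleted cells, highest at DN1, and was at least 3.23-fold higher (3.72 ± 0.48, adjusted p = 0.000592). Fbln2, a fibulin like Fbln1, was highest at DN3 in both genotypes, with -2.86, -1.86 and 1.26 in WT and -0.54, 1.88 and 3.53 in Ezh2-deleted cells (2.78 ± 0.52, adjusted p = 0.00382), and was 3.59 ± 0.52 above p53-deleted cells (adjusted p = 0.00894). Lamc1, a laminin chain, read -0.31, -0.40 and -0.61 and 1.07, 1.52 and 0.88, with no overlap (1.59 ± 0.32, adjusted p = 0.00517). The basement membrane genes Col4a1, Col4a2 and Lama1 were called with the block alone and were above background on no Ezh2-deleted array, at most -4.67, but on all 3 double-deleted arrays.

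Other receptors and signalling genes rose across slides and with the block; they were chosen after their values were seen. Fzd2, a Wnt receptor, read -5.62, -5.23 and -5.55 in WT and -1.52, -0.76 and -1.38 in Ezh2-deleted cells, and p53-deleted cells, at -5.41, -4.02 and -3.28, were above background on no array. Neo1, the netrin and repulsive guidance receptor neogenin, went from -4.67, -5.07 and -5.41 to -1.54, -1.05 and -1.26, and Vangl1, a planar polarity protein, from -5.76, -5.37 and -5.69 to -1.15, -1.19 and -3.56, lowest at DN3, and its call was lost (1.46) with a floor for dim spots. Each was above background on no WT array, and the bounds were at least 4.61-fold, 4.42-fold and 2.76-fold higher (adjusted p = 0.000194, 1.58e-05 and 0.00169). Lrig3, a leucine-rich repeat membrane protein, read -2.11, -3.91 and -3.17 in WT, 1.44, 1.03 and 1.00 in Ezh2-deleted and -3.45, -5.85 and -5.49 in p53-deleted cells, a difference on slide 2 of 6.09 ± 0.43 (adjusted p = 0.000342). Enah, an actin regulator, Fstl1, a secreted glycoprotein, and Prom1, which encodes CD133, were likewise above background on no WT array and on all Ezh2-deleted arrays, with bounds of at least 4.65-fold, 5.26-fold and 6.16-fold higher (adjusted p = 0.000152, 5.89e-06 and 0.00528).

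Of the fetal LIN28 and IGF2BP genes, which mark fetal rather than adult blood progenitors, Igf2bp3 rose. This RNA-binding protein read -5.56, -4.95 and -3.39 in WT and -0.32, 0.59 and 0.04 in Ezh2-deleted cells, at least 11-fold higher (4.74 ± 0.72, adjusted p = 0.00136). It was 4.74 ± 0.72 above p53-deleted cells on slide 2 (adjusted p = 0.0106), and double-deleted cells read 0.73, 0.61 and 0.14. Lin28b, which blocks let-7 maturation, was on no Ezh2-deleted array above background, at -5.35, -4.47 and -4.82, but on all 3 double-deleted arrays, at -0.46, 0.00 and -1.17. In all, 2 of 10 tested members rose and 1 fell, where 17.5% of all features rose and 18.0% fell. Lin28a fell across slides (-2.02 ± 0.30, adjusted p = 0.00115, or 0.51 with the block), though p53-deleted cells on slide 2 read -0.85, -1.20 and -0.43 beside -1.10, -0.94 and -1.17.

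Hox genes, the classical Polycomb targets, were described as a list. Of 39 members, 20 were tested, 4 rose and 3 fell, with a median difference of 0.01. Both counts are near the shares of all features that rose, 17.5%, and fell, 18.0%. With the slide block 9 rose and none fell, where 1.65% and 0.475% of all features did. Hoxb4, a stem cell self-renewal factor, read -1.59, -0.95 and -1.88 in WT and 0.45, 0.36 and 0.45 in Ezh2-deleted cells (1.89 ± 0.27, adjusted p = 0.000942), without overlap, and differed by 0.79 ± 0.27 from p53-deleted cells (adjusted p = 0.148). Hoxa4 read -5.30, -4.94 and -4.88 in WT and -3.46, -2.08 and -2.50 in Ezh2-deleted cells, at least 1.68-fold higher (2.37 ± 0.30, adjusted p = 0.000481), a call lost (0.79) with a floor for dim spots. Both kept the call with the block.

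Hoxa7 went against its block value. It read 0.83, 3.19 and 2.62 in WT and -0.04, 1.96 and 1.55 in Ezh2-deleted cells, a difference of -1.06 ± 0.36 (adjusted p = 0.0458) that lost its call without any single array of the 6, whereas on slide 2 it was 3.90 ± 0.36 above p53-deleted cells (adjusted p = 0.00152) and the block gave 1.73 ± 0.21. Hoxa10, Hoxa11, Hoxb13 and Hoxc9, all called with the block, were above background on no WT, Ezh2-deleted or p53-deleted array and on all 3 double-deleted arrays. Hoxb6 rose across slides, from -5.26, -5.18 and -4.59 to -2.88, -1.71 and -2.43 (2.67 ± 0.31, adjusted p = 0.000316), but not with the block, at -0.04 ± 0.23, and Hoxc6 fell (-2.37 ± 0.51, adjusted p = 0.00769), with 0.46 ± 0.30 under the block. Hoxa9, the leukemia-associated member, did not pass the test (-0.48 ± 0.36, adjusted p = 0.322).

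Among 20 tested of 69 other developmental transcription factors known as Polycomb targets, 2 rose and 7 fell, with a median of -0.49, and with the block 2 rose and 1 fell. Of all features 17.5% rose and 18.0% fell, and with the block 1.65% and 0.475%. Zic5, called with the block, was above background on no Ezh2-deleted array, and none of the 20 both rose across slides and kept the call. The largest changes were falls of Sox1, a neural factor, from -1.20, -1.20 and -1.33 in WT to -3.33, -5.03 and -5.45 in Ezh2-deleted cells, and of Dlx5, a skeletal homeobox factor, from -4.33, -1.29 and -2.18 to -5.12, -4.56 and -4.94 (adjusted p = 0.00262 and 0.00946), neither called with the block (adjusted p = 0.499 and 0.997). Both were above background on no Ezh2-deleted array, and p53-deleted cells on the same slide read -4.24, -4.47 and -4.53 and -5.36, -5.29 and -4.57. The sign of the Dlx5 difference turned with normexp background correction (0.31). The other members lay on chromosome X or Y, had no probe of their name or did not pass the filter on signal.

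The inhibitors of cyclin-dependent kinases other than Cdkn2a were 6. Cdkn2b, the neighbour of Cdkn2a that encodes p15Ink4b, read -2.85, -5.27 and -5.60 in WT, -2.13, -2.76 and -2.95 in Ezh2-deleted and 1.44, 1.21 and 1.62 in p53-deleted cells. It rose against WT (1.96 ± 0.48, adjusted p = 0.0137, a call lost without WT DN2, WT DN3 or Ezh2-deleted DN2, at an adjusted p of up to 0.0632, and with the percentile over detected probes, at 1.73, a floor, at 0.59, or slide as a block, at 1.07 with an adjusted p of 0.238) and was far lower than in p53-deleted cells (-4.04 ± 0.48, adjusted p = 0.00441). Cdkn1c, an imprinted inhibitor that encodes p57Kip2, read -1.45, -1.59 and -1.50 in WT, 0.25, -0.21 and -0.17 in Ezh2-deleted and 0.83, 1.45 and 1.09 in p53-deleted cells. It too rose against WT (1.47 ± 0.24, adjusted p = 0.00183), kept the call with the block (1.03 ± 0.20, adjusted p = 0.0405) and was lower than in p53-deleted cells (adjusted p = 0.0307). Cdkn1b, which encodes p27Kip1, read 4.56, 4.15 and 4.01 in WT and 3.98, 2.84 and 3.08 in Ezh2-deleted cells, the member that fell (-0.94 ± 0.26, adjusted p = 0.0226), a call lost on leaving out any of WT DN1, WT DN2, Ezh2-deleted DN2, Ezh2-deleted DN3 (adjusted p up to 0.0982) or with the block, at -0.58 (adjusted p = 0.257). Cdkn1a, the p53 target p21, did not pass the test against WT (0.56 ± 0.32, adjusted p = 0.199). Of the 7 members, 4 rose and 1 fell, where 17.5% of all features rose and 18.0% fell.

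Of 33 tested p53 target genes, 12 rose and 3 fell, with a median of 0.72, and 3 rose with the block, where 17.5%, 18.0% and 1.65% of all features did so. Phlda3, an inhibitor of AKT, read 0.05, 0.43 and 1.27 in WT, 1.56, 3.11 and 3.12 in Ezh2-deleted and -0.66, -0.18 and -0.87 in p53-deleted cells, without overlap between WT and Ezh2-deleted cells (2.01 ± 0.36, adjusted p = 0.00303), and was 3.16 ± 0.36 above p53-deleted cells (adjusted p = 0.00319). Zmat3, an RNA-binding growth suppressor, read -0.08, -3.50 and -2.18 in WT and 0.93, 0.94 and 0.82 in Ezh2-deleted cells (2.82 ± 0.60, adjusted p = 0.00688, or 0.0975 with the block), highest at DN1 in WT, and Perp, a desmosomal cell death gene, -0.14, -2.68 and -3.48 in WT and 0.62, 0.23 and -0.69 in Ezh2-deleted cells (2.15 ± 0.61, adjusted p = 0.024). The call of Perp was lost without WT DN2, WT DN3, Ezh2-deleted DN2 or Ezh2-deleted DN3 (adjusted p up to 0.0946), and neither was called on slide 2 (adjusted p = 0.164 and 0.191). Mdm2, which degrades p53, did not pass the test (0.08 ± 0.21, adjusted p = 0.787).

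Of 11 tested PRC2 genes, 3 rose and none fell, with a median of 0.64, where 17.5% of all features rose and 18.0% fell. With the block 1.65% of all features rose. Epop, a PRC2 accessory subunit, read 1.97, 2.09 and 2.10 in WT and 3.61, 4.20 and 4.15 in Ezh2-deleted cells (1.93 ± 0.20, adjusted p = 0.000191) and was the member that kept its call with the block (1.24 ± 0.17, adjusted p = 0.0121). The core subunits Eed and Suz12 and the Ezh2 paralog Ezh1 did not pass the test, with differences of 0.46 ± 0.23, -0.29 ± 0.29 and 0.73 ± 0.34. Of 20 tested PRC1 genes, 4 rose and 3 fell, which is near those shares of all features across slides. Bmi1, at 1.22 ± 0.30, kept its call with the block (adjusted p = 0.0128 and 0.0209), but not without WT DN1, WT DN2, Ezh2-deleted DN2 or Ezh2-deleted DN3, with an adjusted p of up to 0.0595. Phf19, an accessory subunit that binds methylated H3, read -1.05, -0.06 and 0.45 in WT and 0.77, 1.20 and 1.19 in Ezh2-deleted cells (1.28 ± 0.31, adjusted p = 0.0135), a call lost without WT DN1, while p53-deleted cells read 1.72, 1.55 and 1.75. The PRC1 chromobox gene Cbx8 read 0.32, -0.01 and 0.09 in WT and -5.16, -4.33 and -5.03 in Ezh2-deleted cells (-4.98 ± 0.29, adjusted p = 6.47e-06) and was above background on no array of slide 2, and Phc1, another PRC1 subunit, rose (1.35 ± 0.24, adjusted p = 0.00316) without a call on slide 2 (adjusted p = 0.305). The calls of Phf19, Cbx8 and Phc1 were lost with the block (adjusted p = 0.58, 0.262 and 0.29).

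**Figure D4:**
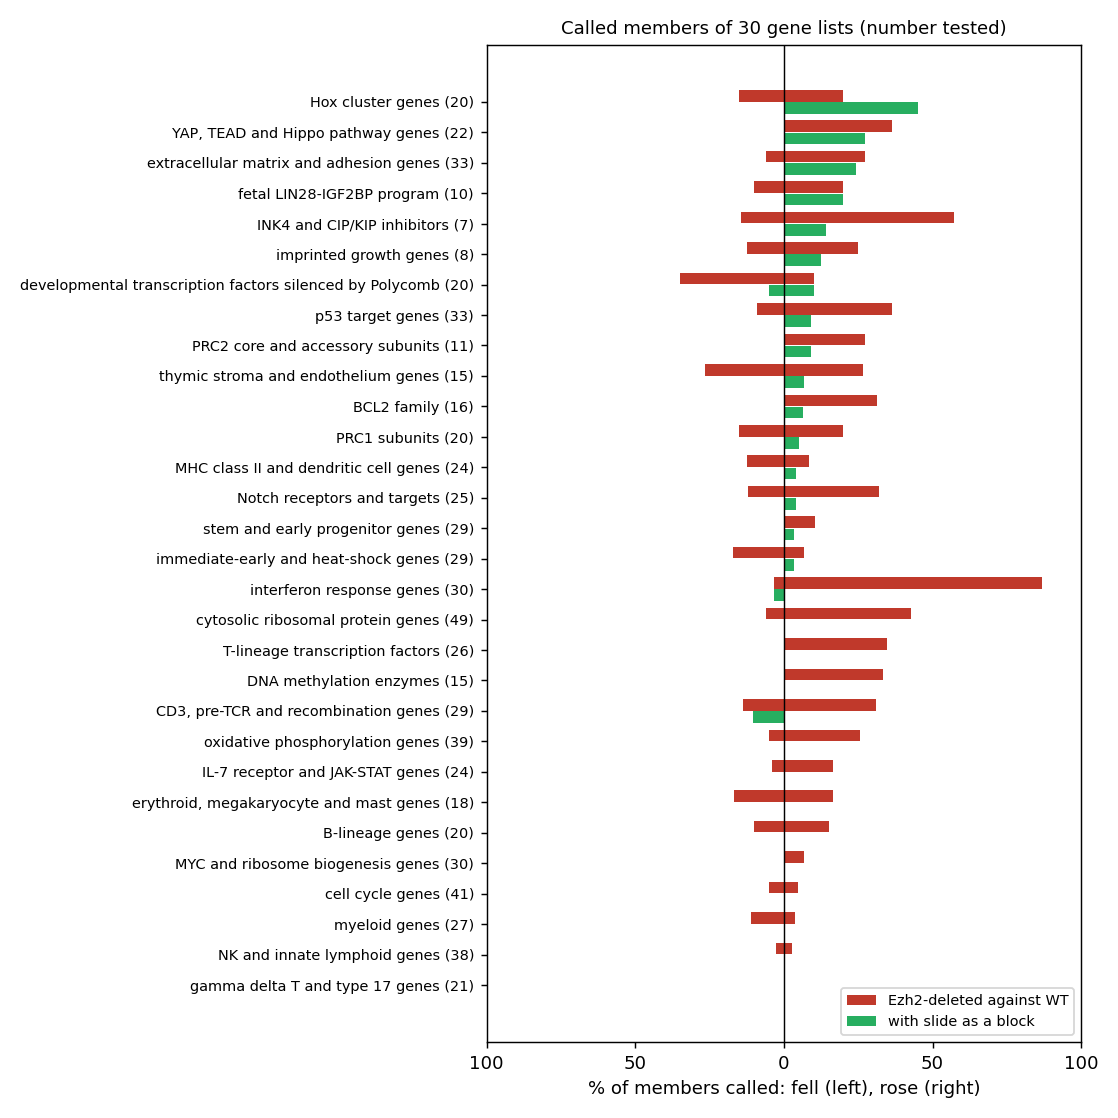
Share of the tested members of 30 gene lists that fell (left of 0) or rose (right of 0), in percent (horizontal axis), in Ezh2-deleted against WT cells (upper bar of each pair) and for Ezh2 deletion with slide as a block (lower bar), with the number tested beside each list. Interferon response genes, 26 of 30 of which rose across slides, had no rise with the block, while Hox, Hippo and matrix genes had 9, 6 and 8.

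T cell receptor and coreceptor genes were described as a list. Of 29 tested CD3, pre-TCR and recombination genes, 9 rose and 4 fell across slides, where 17.5% and 18.0% of all features did. With the block 3 of the list fell (0.475% of all features did) and none rose. Cd8b1, which encodes CD8 beta, read 1.08, -0.10 and 0.43 in WT, -0.45, -3.13 and -1.18 in Ezh2-deleted, 2.19, 1.15 and 0.96 in p53-deleted and 0.52, -1.19 and -0.72 in double-deleted cells. Within each stage the Ezh2-deleted array was the lowest of the 4, and the mean rank went from the 59.8 percentile in WT to the 39.6. It fell by 2.06 ± 0.37 against WT (adjusted p = 0.00347) and was at -3.02 ± 0.37 against p53-deleted cells on slide 2 (adjusted p = 0.00481). Cd4 read 3.10, 2.72 and 2.59 in WT, 1.93, 1.29 and 1.43 in Ezh2-deleted, 3.92, 3.35 and 2.84 in p53-deleted and 2.16, 2.11 and 2.08 in double-deleted cells, a difference from WT of -1.25 ± 0.23 (adjusted p = 0.00386) and from p53-deleted cells of -1.82 ± 0.23 (adjusted p = 0.00547). The mean rank of Cd4 went from the 79.7 to the 68.8 percentile. Cd4 and Cd8b1 encode CD4 and a chain of CD8, and cells positive for CD4 or CD8 were gated out in the sort.

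Cd28, the costimulatory receptor, read 5.86, 4.17 and 4.93 in WT, 4.81, 2.97 and 4.07 in Ezh2-deleted, 6.23, 5.02 and 5.14 in p53-deleted and 4.78, 3.43 and 3.57 in double-deleted cells (-1.04 ± 0.24, adjusted p = 0.0106), and with the block -1.29 ± 0.20 (adjusted p = 0.019). Its levels did overlap between WT and Ezh2-deleted cells across stages but not within a stage. Cd8a fell across slides, from 0.38, -1.54 and -1.15 to -2.13, -3.90 and -3.43 (-2.38 ± 0.36, adjusted p = 0.00128), and did not pass on slide 2 or with the block (adjusted p = 0.0579 and 0.0614), nor with normexp background correction, at -0.50. In contrast, Cd3e rose across slides (1.81 ± 0.29, adjusted p = 0.00189) but differed by 0.42 ± 0.29 from p53-deleted cells (adjusted p = 0.482) and by 0.22 ± 0.24 with the block (adjusted p = 0.714). Ptcra, the pre-TCR alpha chain, read -2.25, 1.41 and 5.99 in WT and -0.14, 5.50 and 7.32 in Ezh2-deleted cells, with the largest gap at DN2. Its rise (2.51 ± 0.85, adjusted p = 0.0461) lost its call without WT DN1, WT DN2, Ezh2-deleted DN2 or Ezh2-deleted DN3 (adjusted p up to 0.185), and with normexp, at 1.75, with the percentile over detected probes, at 2.28, or with the block (adjusted p = 0.319). Rag1, the recombinase, did not pass the test (-0.03 ± 0.94, adjusted p = 0.984).

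Of 26 tested T-lineage transcription factors, 9 rose and none fell across slides, where 17.5% and 18.0% of all features did. None was called with the block, under which 2.13% of all features were. Bcl11b rose from 4.12, 4.89 and 5.26 in WT to 5.71, 5.91 and 5.94 in Ezh2-deleted cells (1.09 ± 0.23, adjusted p = 0.00727) and was also higher than in p53-deleted cells on slide 2 (1.05 ± 0.23, adjusted p = 0.0435), though its call against WT was lost with normexp (0.54). Ikzf1, the lymphoid factor Ikaros, read 2.81, 2.28 and 2.58 in WT and 4.39, 3.89 and 3.66 in Ezh2-deleted cells (1.42 ± 0.21, adjusted p = 0.00109), without overlap, and 3.78, 3.25 and 3.19 in p53-deleted cells, while Nfatc1 (1.60 ± 0.34, adjusted p = 0.00757) and Tox (1.19 ± 0.32, adjusted p = 0.0188) rose across slides too, Tox losing its call on leaving out any of WT DN2, Ezh2-deleted DN1, Ezh2-deleted DN2 (adjusted p up to 0.0762). Of 25 tested Notch receptors and targets, 8 rose and 3 fell. The calls of Hes1, Dtx1 and Heyl were lost with the block (adjusted p = 0.954, 0.229 and 0.771), and 1 other member rose with it. Hes1, a direct Notch target, was lower on the arrays of slide 2, which held both single deletions, than on the others. It read 0.45, 3.28 and 3.32 in WT and 0.11, 1.13 and 2.53 in double-deleted cells, and -5.15, -2.87 and -1.63 in Ezh2-deleted and -5.38, -4.30 and -4.22 in p53-deleted cells. Dtx1, the Notch regulator deltex, read 3.44, 0.98 and 4.48 in WT and 5.56, 5.32 and 6.35 in Ezh2-deleted cells (2.78 ± 0.60, adjusted p = 0.00762), with the largest gap at DN2, and did not pass on slide 2 (1.34 ± 0.60, adjusted p = 0.264). Heyl, a hairy-related target, was above background on 2 of 3 Ezh2-deleted arrays and on no WT array, with -5.04, -0.97 and -0.05 beside -5.47, -5.09 and -3.75, a call lost on leaving out any of WT DN2, WT DN3, Ezh2-deleted DN2, Ezh2-deleted DN3 (adjusted p up to 0.0863).

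Interferon response genes rose across slides, and on slide 2 the member called was Xaf1, lower in Ezh2-deleted cells. Of 30 tested, 26 rose and 1 fell, where 17.5% and 18.0% of all features did. The list had a median difference of 1.42 and medians of 1.48, 1.51 and 1.40 at DN1, DN2 and DN3. With the block none rose, with a median of 0.07, and on slide 2 none was higher than in p53-deleted cells. Isg15, a ubiquitin-like modifier, read 4.22, 4.59 and 4.27 in WT and 6.08, 6.49 and 6.46 in Ezh2-deleted cells, beside 5.73, 5.51 and 5.52 in p53-deleted and 4.16, 3.64 and 4.36 in double-deleted cells. Oas1a, a sensor of double-stranded RNA, read 3.88, 3.13 and 1.84 in WT and 5.65, 5.24 and 4.41 in Ezh2-deleted cells, beside 5.90, 4.87 and 5.04 in p53-deleted cells. Both were high on the arrays of slide 2.

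Xaf1 fell. This interferon-induced cell death factor read 2.89, 2.49 and 2.24 in WT, -0.76, -0.42 and -0.60 in Ezh2-deleted, 4.93, 4.61 and 4.36 in p53-deleted and 3.92, 2.97 and 3.44 in double-deleted cells, so the 3 Ezh2-deleted arrays were the lowest of the 12. The difference was -3.14 ± 0.27 from WT (adjusted p = 5.36e-05), -5.23 ± 0.27 from p53-deleted cells on slide 2 (adjusted p = 5.47e-05) and -2.24 ± 0.21 with the block (adjusted p = 0.00246). The mean rank went from the 77.6 to the 50.1 percentile. Double-deleted cells, in which Ezh2 was deleted too, were above WT at each stage.

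**Figure D5:**
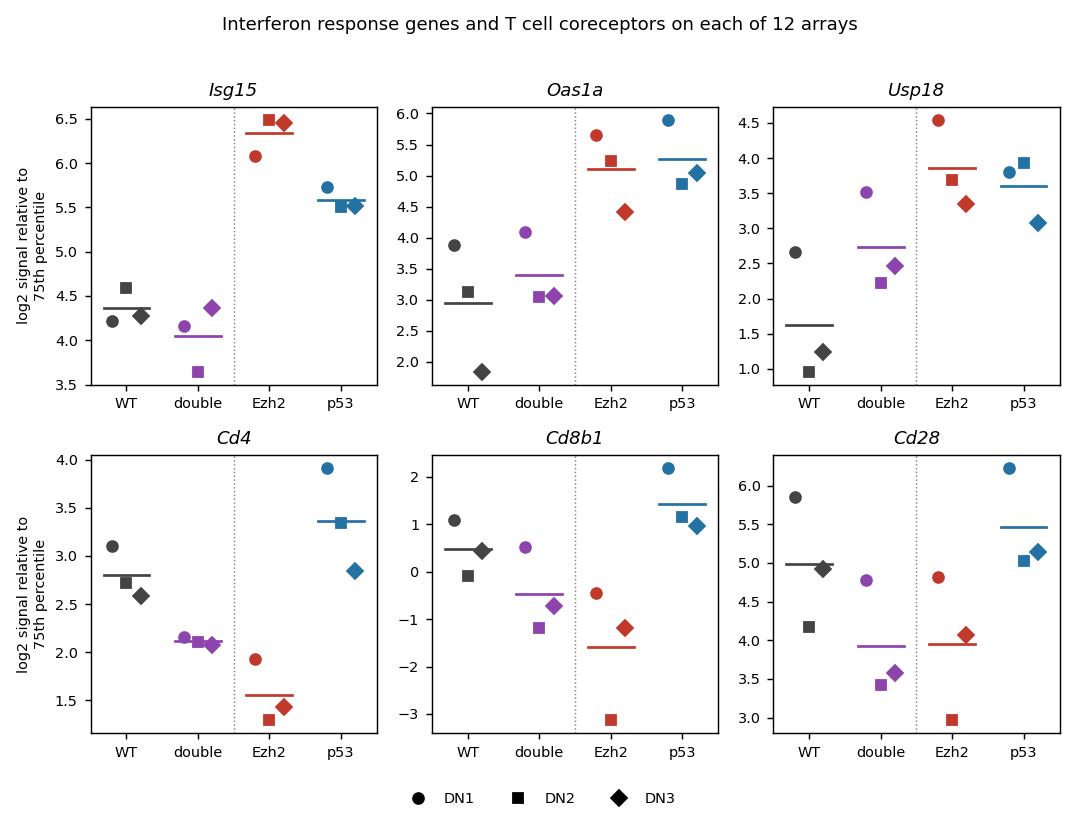
Level of 3 interferon response genes (upper row) and 3 T cell coreceptor genes (lower row) on each of 12 arrays, as log2 signal relative to the 75th percentile (vertical axis), by genotype (horizontal axis), with circles for DN1, squares for DN2, diamonds for DN3 and a bar at the mean of 3. The dotted line separates slide 2 (right) from slides 1 and 3 (left). Isg15, Oas1a and Usp18 were high in both groups of slide 2, while Cd4, Cd8b1 and Cd28 were lower in Ezh2-deleted than in p53-deleted cells on that slide.

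Besides Xaf1, Cd8b1, Cd28 and Cd4, the named genes that fell and kept the call with the block included Slc38a8, Pou4f1, Npas4, 4930557J02Rik, Defb45, Fbxw10, H1f6 and Tat. They are named after their values were seen. Npas4, an activity-dependent transcription factor, read -0.79, -2.48 and -0.70 in WT and -3.04, -4.31 and -2.72 in Ezh2-deleted cells, not above background on any of the latter, and was at least 2.88-fold lower (-2.04 ± 0.26, adjusted p = 0.000552). Pou4f1, a neural transcription factor, went from -2.94, -2.66 and -1.53 to -5.33, -4.64 and -3.73 (-2.19 ± 0.41, adjusted p = 0.00422), a direction that turned with normexp background correction (0.26), as did those of Slc38a8 (0.35) and 4930557J02Rik (0.12), and Npas4, Defb45, H1f6 and Tat lost their calls there (-0.33 to -0.04). Fbxw10, an F-box protein, read 0.59, 1.30 and 1.36 in WT, -0.81, -1.93 and -0.76 in Ezh2-deleted and 1.71, 1.40 and 1.86 in p53-deleted cells (-2.25 ± 0.32, adjusted p = 0.00091).

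Genes of protein synthesis and energy supply were described as lists. Of 49 tested cytosolic ribosomal protein genes, 21 rose and 3 fell, and of 39 tested oxidative phosphorylation genes, 10 rose and 2 fell, with medians of 0.56 and 0.50, where 17.5% of all features rose and 18.0% fell. With the block none of either list was called, and 2.13% of all features were. Of 41 tested cell cycle genes, 2 rose and 2 fell, of 30 MYC and ribosome biogenesis genes 2 rose, and of 24 genes of the IL-7 receptor and of JAK-STAT signalling 4 rose and 1 fell, all without a call under the block. The same held for 15 DNA methylation enzymes, of which 5 rose. Among these Tet1, which oxidises methylcytosine, read 0.56, 0.79 and 1.39 in WT and 1.46, 1.80 and 1.94 in Ezh2-deleted cells (0.82 ± 0.21, adjusted p = 0.0173) and was higher than in p53-deleted cells too, which read -0.20, 0.17 and 0.29 (adjusted p = 0.00562), though its call against WT was lost on leaving out any of WT DN1, WT DN2, Ezh2-deleted DN2 (adjusted p up to 0.0712). Dnmt3a, a de novo methyltransferase, rose (1.14 ± 0.23, adjusted p = 0.00537) without overlap, with 1.83, 1.59 and 1.75 in p53-deleted cells. Of 29 stem and early progenitor genes 3 rose, of 16 BCL2 family genes 5 rose, of 29 immediate-early and heat-shock genes 2 rose and 5 fell, and of 8 imprinted growth genes 2 rose and 1 fell. Ly6a, which encodes the stem cell antigen Sca-1, rose from 3.97, 2.82 and 1.14 to 5.41, 4.41 and 2.89 (1.59 ± 0.25, adjusted p = 0.00165), highest at DN1 in both, beside 4.72, 4.38 and 2.27 in p53-deleted cells, and lost its call with the block (adjusted p = 0.812). Bcl2l14, a BCL2 relative, read 0.39, 2.61 and 2.10 in WT and 1.37, 3.79 and 3.60 in Ezh2-deleted cells (1.22 ± 0.37, adjusted p = 0.0323) and -0.99, 0.25 and 0.56 in p53-deleted cells, a difference on slide 2 of 2.98 ± 0.37 (adjusted p = 0.00506). It kept its call with the block, but lost the call against WT on leaving out any of WT DN1, WT DN3, Ezh2-deleted DN2, Ezh2-deleted DN3 (adjusted p up to 0.129). Bag3, a chaperone partner, kept its call with the block, from 0.04, -0.17 and 0.47 in WT to 2.21, 2.07 and 2.21 in Ezh2-deleted cells (2.05 ± 0.22, adjusted p = 0.000209), beside p53-deleted cells at 1.78, 2.12 and 2.17.

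The gates could hold cells of other lineages, above all at DN1. Natural killer and innate lymphoid genes summed to 1276, 176 and 330 times the 75th percentile at DN1, DN2 and DN3 in WT cells and to 2862, 709 and 698 in Ezh2-deleted cells, with 37, 15 and 12 of 38 members above background in WT and 37, 22 and 11 in Ezh2-deleted cells. B-lineage genes summed to 139 to 218 in WT and 333 to 759 in Ezh2-deleted cells, although Ms4a1 was above background on the DN1 array alone in both. Genes of MHC class II and dendritic cells summed to 596 to 652 and 727 to 1013, and myeloid genes to 332 to 566 and 229 to 460. Stromal and endothelial genes summed to 213 to 455 and 630 to 695, with 15 and 10 of 15 members above background on at least 1 array, and erythroid, megakaryocyte and mast genes to 11.8 to 117 and 21.1 to 102. On the same slide as the Ezh2-deleted arrays, the p53-deleted arrays gave 574 to 692 for the stromal list, so its higher sum was shared by both groups of slide 2. They gave 364 to 1387 for the natural killer, 63.7 to 112 for the B-lineage, 306 to 584 for the dendritic, 234 to 282 for the myeloid and at most 61.3 for the erythroid list. Double-deleted arrays gave 363 to 429 for the stromal, 276 to 890 for the natural killer, 67 to 122 for the B-lineage, 362 to 443 for the dendritic, 260 to 272 for the myeloid and 44.4 to 81.1 for the erythroid list. Across slides 17.5% of all features rose and 18.0% fell. In these lists, 1 rose and 1 fell of 38 natural killer, 3 and 2 of 20 B-lineage, 1 and 3 of 27 myeloid, 2 and 3 of 24 dendritic, 3 and 3 of 18 erythroid and 4 and 4 of 15 stromal genes, and none of 21 gamma delta T genes. With the block the members called were Pld4, of the dendritic list, and Krt18, of the stromal list, both higher. Cd79b, a B cell receptor chain, read 2.90, 3.60 and 3.67 in WT and 5.41, 4.51 and 4.96 in Ezh2-deleted cells (1.57 ± 0.32, adjusted p = 0.00623) and was 2.67 ± 0.32 above p53-deleted cells (adjusted p = 0.00447), while Siglech, of plasmacytoid dendritic cells, and Itgam, of myeloid cells, read 8.83, 8.70 and 8.50 and 6.10, 5.84 and 5.34 in WT and 6.68, 6.60 and 7.08 and 4.26, 4.43 and 4.30 in Ezh2-deleted cells, high in both and lower in the latter (adjusted p = 0.000319 and 0.00607). Gzma, a cytotoxic granzyme, read 8.15, 5.90 and 8.09 and 9.11, 9.04 and 9.33. The calls of Cd79b, Siglech, Itgam and Gzma were lost with the block (adjusted p = 0.158, 0.211, 0.413 and 0.318). In bulk samples more cells of a type and more RNA for each cell cannot be told apart, and the part of these cells in the results above was not tested.

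Krt18, an epithelial keratin of the stromal list, read 0.04, -0.41 and -0.32 in WT and 1.87, 2.77 and 3.21 in Ezh2-deleted cells (2.85 ± 0.42, adjusted p = 0.0011) and was 2.64 ± 0.42 above p53-deleted cells (adjusted p = 0.0122), while Krt5, a keratin of thymic epithelium, was above background on no Ezh2-deleted array, at -4.70, -4.91 and -5.05, and was not called with the block (adjusted p = 0.922). Epcam, an epithelial surface protein, read -2.83, -2.21 and 0.08 in WT and -1.81, -0.22 and 0.95 in Ezh2-deleted cells, highest at DN3 in both (1.29 ± 0.40, adjusted p = 0.0329), and did not pass with the block (adjusted p = 0.174).

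At each stage the comparison is 1 array against 1, without a test. Past a log2 difference of 2, 845 features were higher in Ezh2-deleted cells at DN1 (3.21%) and 3221 lower (12.2%), 1224 higher (4.65%) and 2250 lower (8.55%) at DN2, and 1152 higher (4.38%) and 1883 lower (7.16%) at DN3. Of the 13727 named genes tested, few stood apart at a single stage. These were past 2 at it, within 0.5 at both others and well above background on the array of the higher genotype. They numbered 49 higher and 40 lower at DN1, 9 and 14 at DN2, and 14 and 8 at DN3. Of the 5 highest at DN1, Prss34, a serine protease of mast cells and basophils, read -3.64, -4.06 and -5.07 in WT and 2.04, -4.18 and -5.18 in Ezh2-deleted cells, and Cma1, the mast cell chymase, -4.60, -5.07 and -5.43 and -0.05, -4.60 and -4.97. Prss34 was above background in double-deleted DN1 cells too, at 0.99. Ifitm6, Togaram2 and Sstr1 had differences there of 5.84, 5.34 and 4.92.

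Of the 5 lowest at DN1, Adamdec1, a metalloprotease of dendritic cells and macrophages, read 2.37, -5.25 and -5.58 in WT and -5.18, -4.91 and -5.32 in Ezh2-deleted cells, and Alox15, an eosinophil and macrophage lipoxygenase, -0.58, -5.41 and -5.73 and -5.37, -5.04 and -5.44. Klra6, a Ly49 receptor of natural killer cells, and Slc40a1, the iron exporter ferroportin, had differences of -5.48 and -4.33 at DN1, and Olfr850 of -5.70. On slide 2, Ezh2-deleted minus p53-deleted at DN1 was 0.43 for Adamdec1, 0.36 for Alox15, 0.12 for Klra6, -0.38 for Slc40a1 and 0.13 for Olfr850. Double-deleted minus WT at DN1 was -5.34, -4.07, -4.30, -1.88 and -6.28 in that order. For these genes the WT DN1 array thus stood above the DN1 array of every other genotype. At DN2, Il23r, the IL-23 receptor, read -5.13 in WT and -0.95 in Ezh2-deleted cells, and Dach1, a developmental transcription regulator, -5.22 and -1.32. At DN3, Cacna2d3, a calcium channel subunit, was at -5.43, -5.02 and -5.31 and -5.27, -4.69 and -0.85, and Tgfbi, a TGF-beta-induced matrix protein, at 1.03, -5.30 and 0.69 and 1.10, -4.96 and -5.37. At DN2, Ezh2-deleted minus p53-deleted on slide 2 was -2.37 for Il23r and 4.32 for Dach1, and double-deleted minus WT was -0.87 and 4.76. At DN3, the same differences were 4.18 and -0.52 for Cacna2d3 and -0.02 and -6.06 for Tgfbi. Each of these stage differences rests on a single pair of arrays.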

How the data were processed

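RNA of each sorted population was labelled with Cy3 and hybridised to 1 single-colour Agilent array. The values used are processed spot intensities of the deposited scanner files, from Feature Extraction 10.7.1.1 on a grid annotated to mm9, per the file headers. They were background-subtracted by the authors' scanner software and not normalized between arrays. The separate deposited value table holds the same intensities already scaled to the 75th percentile of each array. Its log2 values matched those used here up to a constant for each array, with a standard deviation of at most 0.0003. The log2 of each intensity minus the log2 of the array's 75th percentile was tested here. Control spots and outlier flags were left out, spots of a probe were averaged, and the brightest probe stood for a gene. Of 55681 probes, 27656 had 1 gene symbol, and 1723 on chromosomes X and Y were left out. Features well above background on fewer than 2 of the 14 arrays were left out, and 26315 remained, 6262 of them with no known chromosome and 72 with a value missing on some array. limma 3.58.1 (R 4.3.3) was fitted to the 12 non-leukemic arrays with genotype and stage as terms and Benjamini-Hochberg adjustment over all features, with 6 residual and 2.91 prior degrees of freedom. The slide block fit and the comparison on slide 2 used the same features. The number of arrays limits the precision, and depth has no meaning for arrays beyond signal over background.

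The named genes were the 3 marker genes and the 15 largest eligible called differences in each direction. The leading called members of the 30 gene lists and the genes that stood apart at a single stage were also named. Of the named genes that rose and fell, 3219 and 1442 were eligible for the 15. An eligible rise had signal above background in Ezh2-deleted cells and the same sign at all 3 stages. Other genes are named for a known role or after their values were seen. Some genes that these rules name are not reported here, though the counts of lists and calls hold them. The members and lists were chosen with earlier results of these data known. The script was tested on simulated data. Scaling, background, filter, probe choice, arrays and slide were varied as alternatives.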

Additional observations from a re-analysis of the deposited data

Results flagged for a closer look

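Xist, which was left out with all genes of chromosomes X and Y, gave a signal on the Ezh2-deleted arrays above the level of the WT arrays. It read 1.77 at DN1, 2.18 at DN2 and 2.57 at DN3 on the log2 scale relative to the 75th percentile, and was well above background on no WT, p53-deleted or double-deleted array. The part of this difference between the groups in the autosomal results was not tested.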

How the results depend on the processing

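Arrays were paired by stage, through the stage term of every fit. The arrays compared all carry the replicate number 1, which gave no further pairing. Leaving out each array in turn gave 6228 to 9261 called features against WT (2550 to 4476 rises, 3678 to 4785 falls), 265 to 1071 on slide 2 (168 to 611 higher, 97 to 460 lower) and 261 to 523 with the slide block (219 to 424 rises, 41 to 128 falls). Within-array ranks in place of signals gave 8709 calls (4529 rises, 4180 falls). The rises numbered 9877 with normexp background correction. With slide as a block the 9324 calls became 560 (435 rises, 125 falls), and with the percentile over detected probes that fit gave 358 (288 rises, 70 falls). The counts past 2 at a stage, tried under other settings after the data were seen, were 483 higher at DN1 with the percentile over detected probes, and with a floor for dim spots 546 higher and 1815 lower at DN1, 671 and 1285 at DN2 and 577 higher at DN3. Of 162 named genes, 157 of them called, the 25 whose sign turned with the slide block were Ezh2 (0.027), Ppp5c (0.047), Cdk1 (0.35), Ndufaf8 (0.16), E2f4 (0.43), Jarid2 (-0.12), Ring1 (0.31), Pax3 (0.58), Hoxb6 (-0.035), Hoxc6 (0.46), Hoxa7 (1.73), Tox (-0.35), Hes1 (0.065), Csf1r (0.10), Pou2af1 (-0.10), Cd22 (0.044), Ciita (0.13), Cd244a (0.26), Ccr6 (-0.22), Rora (-0.28), Aurkb (0.28), Rpsa (-0.0099), Rpl19 (-0.080), Atp5o (0.22) and Ndufa8 (0.16), while 58 of the 157 kept their call and 77 lost it. With normexp 11 turned: Dlx5 (0.31), Pax3 (0.38), Magel2 (0.46), Rrm2b (0.52), Ciita (0.26), Krt14 (0.21), Krt5 (0.57), Aurkb (0.045), Slc38a8 (0.35), Pou4f1 (0.26) and 4930557J02Rik (0.12). Ezh2 ranged from -0.68 to 0.13 when each array was left out, and turned without WT DN3. The cause of these changes was not tested. No sign turned under the other settings run for these genes. The deposited value table kept all 157 calls, but it holds the same intensities scaled in the same way, so it was no separate check. With the 6 arrays alone 8 genes lost and 2 gained a call. Signal over background limits the dim genes: of the 15 largest rises, 10 were not above background in WT cells and have only a bound there.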
